A study of Mus musculus with 9 samples.

Results

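The transcripts described here are those of the cytosolic ribosomal proteins, the proteins that join ribosomal RNA to form the large and the small ribosomal subunit. Members were the genes whose symbol in the platform annotation has the form of a cytosolic ribosomal protein name (Rpl, Rps or Rplp followed by a number, with paralog suffixes and without the Rps6k kinases). The rule found 48 genes of 18193 measured, namely 42 canonical ribosomal proteins and 6 paralogs. Each gene was read from the probe set, among those that name it alone, that was brightest on average over the 9 arrays. A further 29 symbols of the same form stood only on probe sets that also name other genes, mostly pseudogenes, and they are not analysed here by name. Rpl3, the ubiquitous relative of Rpl3l, is among them.

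The samples were right ventricular myocardium of C57BL6J male mice, 6 to 8 weeks old, profiled as total RNA on one-colour Affymetrix mouse arrays. In 5 samples the pulmonary artery had been banded, which raises the pressure against which the right ventricle pumps, and 4 samples came from sham-operated mice. The genotype was the same in both groups. The labels number the samples without stating that each came from a separate animal, so p-values measure the spread between these samples, which may be technical. Precision is limited by how few arrays there are. Values are log2 expression, and differences are banding minus sham with the standard error (SE).

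Ribosomal proteins of the large subunit carry the prefix Rpl and those of the small subunit Rps, while Rplp0 and Rplp2 belong to the stalk that recruits elongation factors. Their messengers begin with a terminal oligopyrimidine (TOP) tract, through which mTORC1 signalling controls their translation together, and ribosome production is a part of the growth of an overloaded heart muscle cell. Several ribosomal proteins have paralogs, of which Rpl3l is restricted to heart and skeletal muscle and takes the place of Rpl3 in the ribosomes of those cells.

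Some properties of the arrays touch these results. All 12 ventricular cardiomyocyte markers were above the dim level of 4.198, which is 2 log2 units above the lowest value in the table, and array medians lay between 3.23 and 3.31. Liver transcripts were present in the whole sham group, and most in sham replicate 4. All 17 liver markers measured were lower in banding, with a median difference of -7.07, and also without sham replicate 4, with a median of -6.28. The summed level of 17 liver markers, as log2 of the sum of their linear values, was 17.37 on that array, between 13.63 and 14.98 on the other sham arrays, and between 7.07 and 10.02 in banding. Leaving out sham replicate 4 does not remove this difference between the groups, and its part in the results was not tested. Members whose call is lost or gained without that array are named below, and the calls of Eif4ebp1 and Larp1 were lost too.

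The canonical ribosomal proteins were slightly higher in banded ventricles, while the muscle paralog Rpl3l was far lower. At an adjusted p of 0.05 in limma, 29 of the 48 genes were called higher in banding, 2 were called lower and 17 were not called. The median difference was 0.21. Over all 18193 genes 38.4% passed, 18.4% as higher and 20.0% as lower, and the median difference was -0.01 over the 11013 genes above the dim level in at least 1 group. All 29 higher genes were canonical and both lower genes, Rpl3l and Rps27l, were paralogs. Without sham replicate 4 the counts were 27 higher and 2 lower. Rpl8 (0.21, adjusted p = 0.0534), Rps15 (0.21, adjusted p = 0.0817) and Rplp2 lost their calls there, and Rpl22l1 gained one. The groups did not overlap for 26 members, against 36.7% of all genes. Banding was the higher group in 24 of them, against 17.4% of all genes.

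**Figure D1:**
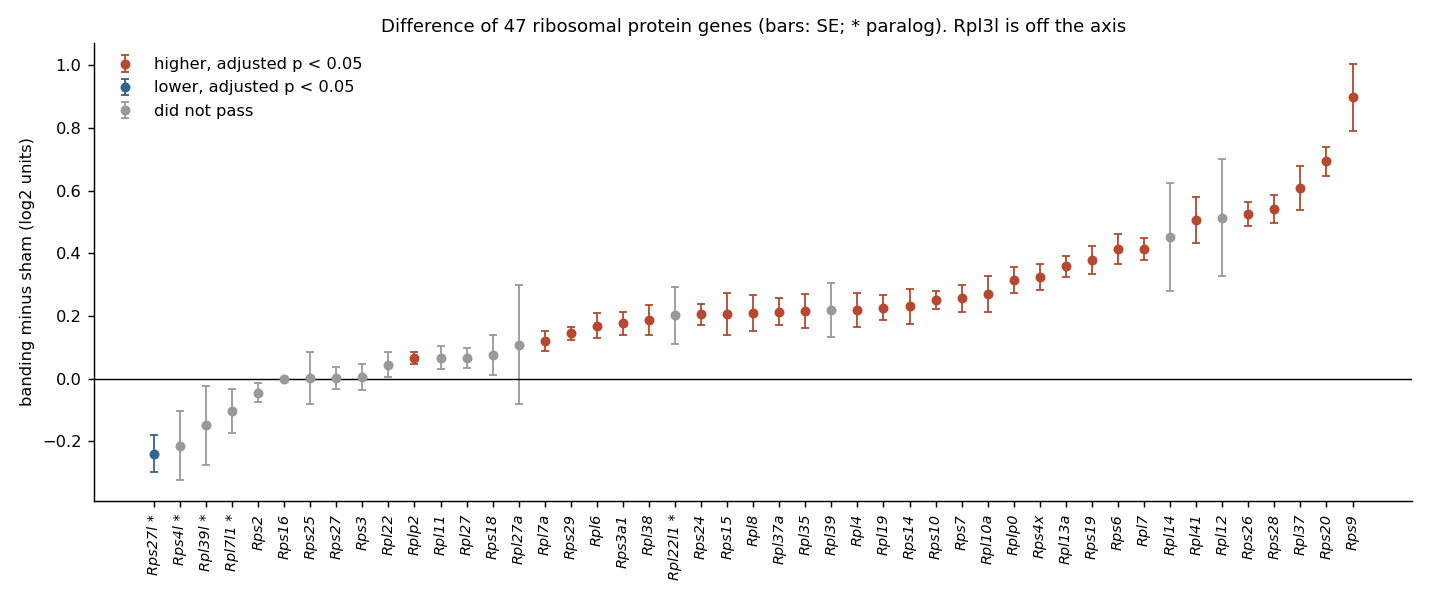
Difference between banding and sham for 47 ribosomal protein genes in log2 units, in ascending order, with bars for the SE, colours for the call and asterisks for paralogs. Rpl3l, at -3.63, lies off the axis. The points run from -0.24 for Rps27l to 0.90 for Rps9, and most canonical genes sit between 0 and 0.6.

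The rises were small but regular. Among the 29 higher genes the fold ran from 1.05 for Rplp2 to 1.86 for Rps9 with a median of 1.19, and 16 of them rose by less than 1.2-fold. On each array, the value minus the sham mean was taken for the 33 canonical genes with a mean of 12 or more, and the median over these genes was recorded. It lay between -0.04 and 0.03 on the sham arrays and at 0.22, 0.26, 0.18, 0.25 and 0.20 on banding replicates 1 to 5. Every banding array thus stood above every sham array, and on each of them 28 to 32 of the 33 genes exceeded their sham mean. Of these 33 genes, limma called 27 higher and 0 lower, with 6 not called. The 621 other genes with a mean of 12 or more went the other way in the median, with a difference of -0.15. Of them 76.7% passed, 29.1% as higher and 47.5% as lower. Separation of the groups was found for 22 of the 33 canonical genes, all with banding higher, against 73.4% of these other bright genes in either direction and 26.7% with banding higher.

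**Figure D2:**
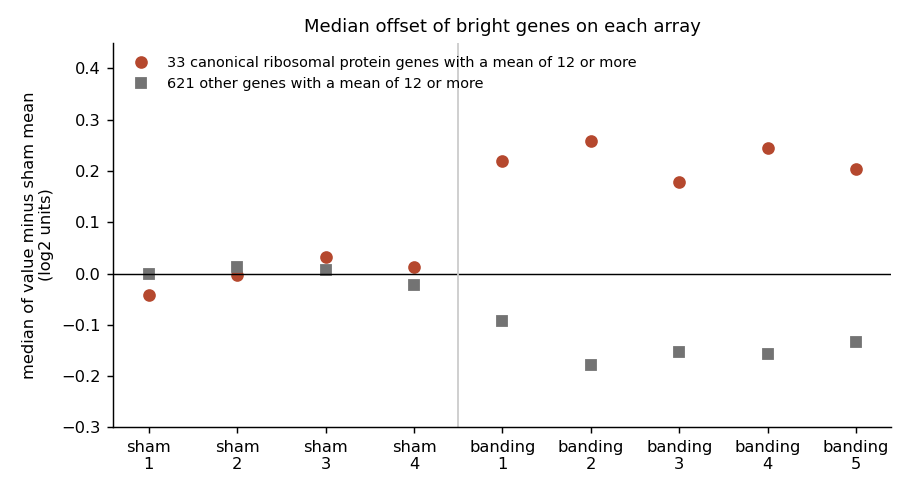
Median of the value minus the sham mean on each of the 9 arrays, in log2 units. Circles show the 33 bright canonical ribosomal protein genes and squares the 621 other genes with a mean of 12 or more. The median of the gene means was 14.00 for the ribosomal protein genes and 12.91 for the other genes. On the 5 banding arrays the ribosomal protein genes lie between 0.18 and 0.26 and the other genes between -0.18 and -0.09.

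Both subunits contributed to the higher genes. Of 20 canonical large-subunit genes, 13 passed as higher and 0 as lower, and the median difference was 0.22. Of 20 small-subunit genes, 14 passed as higher and 0 as lower, and their median was also 0.22. The difference between the subunits was not tested.

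In the small subunit, Rps9, which lies near the messenger entry side of the subunit, showed the largest rise. The sham arrays, in replicate order, read 12.87, 12.65, 12.53 and 12.58, and the banding arrays read 13.28, 13.59, 13.52, 13.72 and 13.68. Every banding value exceeded every sham value, and the rise was 1.86-fold (0.90 ± 0.11, adjusted p = 0.000463, limma). Its probe sets differed in size. A second one gave 0.27 (adjusted p = 0.00518 with each probe set tested singly), and the dimmest, at a mean of 4.62, gave -0.18 and did not pass.

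Rps20 held sham values of 14.46, 14.47, 14.46 and 14.48 and banding values of 15.02, 15.22, 15.13, 15.26 and 15.18. The sham arrays were nearly equal and the groups lay far apart, with a rise of 1.62-fold (0.69 ± 0.05, adjusted p = 5.08e-05). A further bright probe set gave 0.66. Both carry the mark for possible matches to other genes, and without marked probe sets the gene was left on dim ones and was not called. Rps28 had a mean of 14.43 ± 0.08 on the 4 sham arrays (SD) and 14.97 ± 0.06 on the 5 banding arrays (SD), a rise of 1.45-fold (0.54 ± 0.05, adjusted p = 0.000111). Rps28 had 3 probe sets, which rose by 0.37 to 0.54.

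Rps26 stood at 13.17, 13.16, 13.26 and 13.27 in sham and at 13.66, 13.80, 13.73, 13.79 and 13.71 in banding, a rise of 1.44-fold (0.52 ± 0.04, adjusted p = 6.83e-05). Its groups did not overlap. Rps19, whose human counterpart is mutated in Diamond-Blackfan anaemia, rose 1.30-fold (0.38 ± 0.04, adjusted p = 0.000377). Rps4x, the X-linked form of the S4 protein, rose 1.25-fold (0.33 ± 0.04, adjusted p = 0.000629).

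Rps6 is the protein that the S6 kinases phosphorylate downstream of mTORC1. Its transcript was at 8.20, 8.14, 8.26 and 8.14 in sham and at 8.62, 8.55, 8.48, 8.69 and 8.65 in banding, so the groups were apart. The rise was 1.33-fold (0.41 ± 0.05, adjusted p = 0.000395). It was read on a weak probe set, with a mean of 8.41 against a median of 13.57 over the 48 members. Smaller rises passed for Rps7 (0.26), Rps10 (0.25), Rps14 (0.23), Rps24 (0.20), Rps15 (0.21), Rps3a1 (0.18) and Rps29 (0.14).

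In the large subunit, Rpl37 showed the largest called rise, 1.53-fold (0.61 ± 0.07, adjusted p = 0.000372). Its values were 9.42, 9.24, 9.40 and 9.27 in sham and lay between 9.77 and 10.08 in banding, without overlap. The only probe set that names Rpl37 alone was weak for the family, with a mean of 9.67 against a median of 13.57 over the 48 members. It carries the mark for possible matches to other genes. Rpl37 could therefore not be tested without marked probe sets. Rpl41, which encodes a very short basic peptide, rose 1.42-fold (0.51 ± 0.07, adjusted p = 0.00108), from 13.53 to 13.71 over the sham arrays to 13.97 to 14.30 over the banding arrays. All 4 of its probe sets were higher in banding, by 0.23 to 0.83, and 2 of them passed when tested singly.

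Rpl7 rose 1.33-fold (0.41 ± 0.03, adjusted p = 0.000115), and 3 probe sets measured it, with differences of 0.41 to 0.67. Rpl13a, which also has a described role outside the ribosome in the silencing of inflammatory transcripts, rose 1.28-fold (0.36 ± 0.03, adjusted p = 0.000168). The sham values of Rpl13a were 14.72, 14.75, 14.74 and 14.79, below all banding values of 15.05, 15.15, 15.05, 15.20 and 15.08. The other called genes of the subunit, Rpl10a, Rpl19, Rpl4, Rpl35, Rpl37a, Rpl8, Rpl38, Rpl6 and Rpl7a, rose by 0.12 to 0.27.

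Of the stalk proteins, Rplp0 is often used as a reference transcript in quantitative PCR. It stood at 14.94, 14.93, 14.83 and 14.86 in sham and at 15.16, 15.24, 15.10, 15.27 and 15.24 in banding. The groups did not overlap, and the rise was 1.24-fold (0.31 ± 0.04, adjusted p = 0.000726). Rplp2 differed by 0.07 ± 0.02 (adjusted p = 0.034) with overlapping groups, the smallest difference among the called genes. That call was lost with arrays centred on their medians (0.02, adjusted p = 0.536) and without any of several single arrays, with adjusted p up to 0.0857 for a single array left out.

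**Figure D3:**
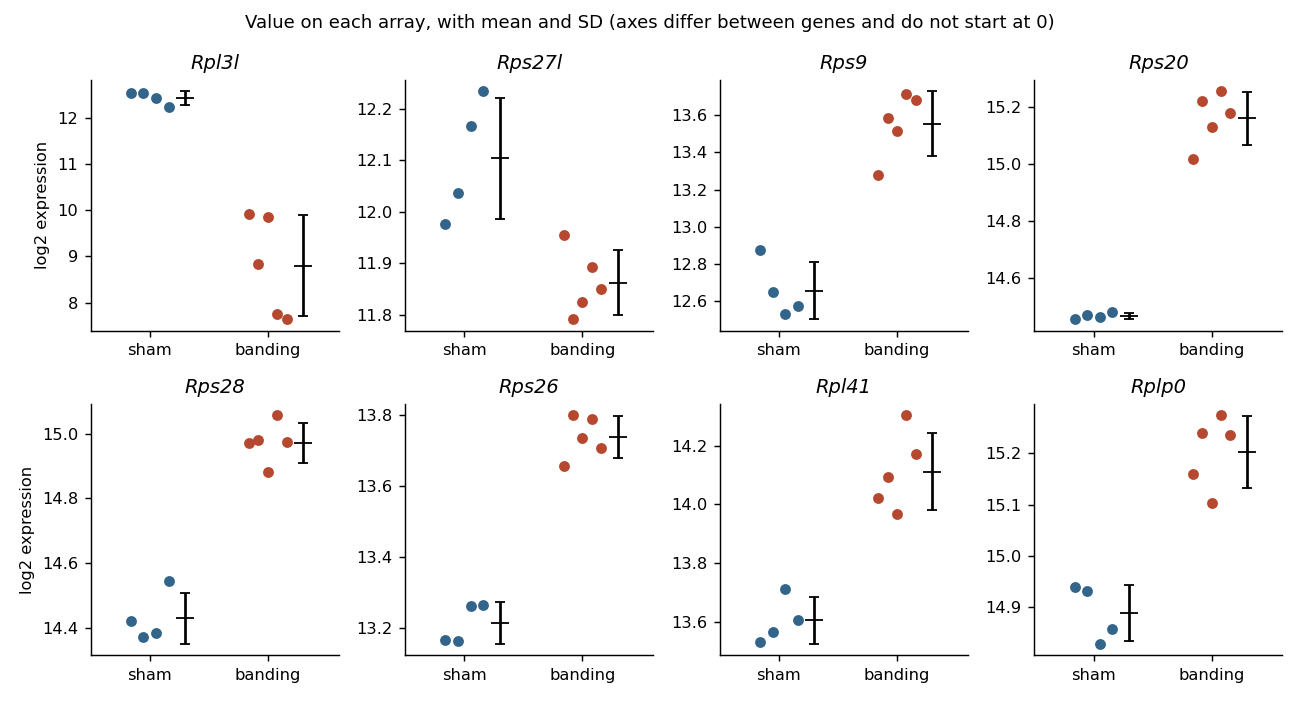
Log2 expression on each of the 4 sham and 5 banding arrays for 8 ribosomal protein genes, with the mean and SD beside the points. Axes differ between genes and do not start at 0. The groups are apart in every panel. Rpl3l differs by -3.63 and spreads from 7.64 to 9.92 in banding, while the rises shown lie between 0.31 and 0.90.

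Other canonical genes did not pass. Rpl11, which with Rpl5 binds Mdm2 when ribosome assembly fails, differed by 0.07 (95% interval -0.02 to 0.15, adjusted p = 0.223). Rps3 differed by 0.004 (-0.09 to 0.10), Rps2 by -0.04 (-0.11 to 0.02) and Rpl22 by 0.04 (-0.05 to 0.14). These intervals, each from 1 probe set, leave out changes as large as those of Rps26 or Rps28. A dimmer probe set of Rps3, at a mean of 6.75, differed by 0.38 and did not pass singly. The mean of the Rps3 probe sets was called higher (0.13, adjusted p = 0.0283, limma). Several genes were read on dim or weak probe sets because their brighter ones name a pseudogene as well. Rps16 lay at the floor of the table on all arrays, Rps27 at 4.37 to 4.56 and Rpl39 at 4.22 to 4.74, and their values say little about the messenger. Rpl14 (0.45 ± 0.17, adjusted p = 0.0787) and Rpl12 (0.51 ± 0.19, adjusted p = 0.0654) had differences like those of called genes, with a wider spread, and did not pass.

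The start sites of the members are shown because the TOP tract is the sequence that their messengers share. RefSeq promoters in the GRCm38.p6 build, which span 250 bases before to 50 after an annotated start, matched 42 of the 48 genes. The windows below run from 10 bases before the annotated start through the first 20 transcribed bases, 5′ to 3′ on the gene's strand. Capitals mark the longest run of C and T in the window. The first 7 belong to genes that rose, 6 chosen to show long tracts and Rpl41 to show a short one, and the last belongs to Rpl3l.
Rpl13a, chr7:45128726-45128755, minus strand: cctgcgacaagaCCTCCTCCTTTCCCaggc
Rpl35, chr2:39005112-39005141, minus strand: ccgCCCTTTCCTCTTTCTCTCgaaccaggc
Rps6, chr4:86857348-86857377, minus strand: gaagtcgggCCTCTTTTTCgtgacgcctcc
Rps10, chr17:27635225-27635254, minus strand: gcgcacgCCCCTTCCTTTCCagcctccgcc
Rps26, chr10:128626487-128626516, minus strand: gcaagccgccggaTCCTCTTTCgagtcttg
Rps9, chr7:3704031-3704060, plus strand: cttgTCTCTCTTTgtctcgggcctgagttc
Rpl41, chr10:128549149-128549178, minus strand: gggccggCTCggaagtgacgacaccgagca
Rpl3l, chr17:24727816-24727845, plus strand: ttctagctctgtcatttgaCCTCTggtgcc

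The run of C and T measured 14 bases in the window of Rpl13a, 18 in Rpl35, 10 in Rps6, 13 in Rps10, 9 in Rps26 and 9 in Rps9, against 3 in Rpl41 and 5 in Rpl3l. The run does not set Rpl3l apart, since 8 of the 24 higher genes with a promoter had a longest run of at most 5 in their windows, and the median run was 7 both in higher genes and in the 16 genes not called. Within 50 bases of an annotated start, a run of at least 8 occurred in 36 of the 42 genes (85.7%) and in 39.3% of 27025 genes with a promoter. Rpl3l held such a run too, of 9 bases, outside the window shown. A start base C followed by at least 4 further C or T was found in 8 of 42 genes (19.0%) and in 3.01% of all. Annotated starts can lie some bases from the true start, and a match is a description of these letters.

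Another motif was frequent in the same promoters. CCGGAAG, the core bound by factors of the ETS family, was searched on both strands of the full 300 bases and found in 20 of 42 genes (47.6%) and in 9.93% of all. The Rpl3l promoters did not hold it. They held CAGCTG, an E-box bound by myogenic factors, also searched on both strands, which occurred in 3 of 42 members and in 18.3% of all genes. The other motifs searched, CATTCCT on both strands and TATAAA on the gene's strand, were absent from the Rpl3l promoters. CATTCCT occurred in 1 of 42 members and 6.15% of all genes, and TATAAA in 5 of 42 and 9.77%.

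Among the paralogs, Rpl3l showed the only change of at least 2-fold in the family. Sham replicates 1 to 4 read 12.54, 12.53, 12.43 and 12.22, and banding replicates 1 to 5 read 9.92, 8.84, 9.85, 7.76 and 7.64. Every banding array lay below every sham array, and banding replicates 4 and 5 were lowest. The fall was 12.4-fold (-3.63 ± 0.54, 95% interval -4.89 to -2.36, adjusted p = 0.00126). Its mean was 12.43 ± 0.14 on the 4 sham arrays (SD) and 8.80 ± 1.09 on the 5 banding arrays (SD). It was the 94th largest among the 3633 genes called lower. Without sham replicate 4 it was -3.70 (adjusted p = 0.00424), and over 19 alternatives it ran from -3.91 to -3.34. A single probe set measured Rpl3l, so no other probe set could be compared.

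In bulk tissue, fewer cells of a type and less RNA per cell cannot be told apart. Beside the fall of Rpl3l, 6 of 12 cardiomyocyte markers were called lower and 1 higher, and their median difference was -0.18. All 12 had a mean of at least 13.62. Of the 621 genes outside the family with a mean of 12 or more, 47.5% were lower, with a median difference of -0.15. The marker list is thus near the share of bright genes. Without sham replicate 4 only 3 cardiomyocyte markers were lower, and without that array and banding replicate 5 only 2, with medians of -0.18 and -0.16. The loss was not particular to that array, since 4 were lower without sham replicate 1, 2 or 3. With the replicate block 1 was lower. The summed level of the 12 cardiomyocyte markers was 18.92 to 18.98 in sham and 18.68 to 18.86 in banding. Of 10 skeletal muscle markers 1 was lower and 9 were not called, and Myh4, Myh2, Actn3, Pvalb and Atp2a1 were dim in both groups. Their median difference was -0.74, and -0.06 without sham replicate 4. Their summed level was 14.61 to 14.71 in sham and 13.515 to 14.34 in banding, without overlap. The brightest of these markers had a mean of 14.21, and the median of the marker means was 3.25. The sum therefore mainly reflects that brightest marker and not the list.

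The genes whose values followed Rpl3l most closely over the 9 arrays, of 10741 compared, were Acadvl, Dip2c, Aldh5a1, Marchf6 and Hadh, with Pearson correlations of 0.998 to 0.999. Both groups enter these values, so the difference between groups supplies much of the correlation. Acadvl and Hadh encode enzymes of mitochondrial fatty acid oxidation. Acadvl was at 12.96, 12.56, 12.90, 12.14 and 12.15 on banding replicates 1 to 5, the same order of high and low arrays as Rpl3l apart from replicates 4 and 5, and fell by 1.27 ± 0.19 (adjusted p = 0.00146). Acadvl was picked by this correlation, so neither the shared order nor the fall is independent of that choice.

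The other paralogs moved little. Rps27l, a p53-inducible relative of Rps27, was 1.18-fold lower (-0.24 ± 0.06, adjusted p = 0.0135), at 11.98, 12.04, 12.17 and 12.23 in sham and 11.95, 11.79, 11.83, 11.89 and 11.85 in banding. The groups were apart by a narrow margin. Its other 2 probe sets differed by -0.04 and -0.01 and did not pass, and the call was lost without sham replicate 4 and banding replicate 5 together (-0.19, adjusted p = 0.0615).

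Rpl22l1, the relative of Rpl22 that can substitute for it, differed by 0.20 (95% interval -0.01 to 0.41, adjusted p = 0.129) and passed without sham replicate 4 (0.27, adjusted p = 0.0474). Rps4l differed by -0.21 (-0.47 to 0.04, adjusted p = 0.184), and without sham replicate 3 it passed at -0.30 (adjusted p = 0.0426). Rpl7l1, a nucleolar relative of Rpl7, differed by -0.10 (-0.27 to 0.06), while averaging its 3 probe sets gave -0.26, which passed (adjusted p = 0.0129). Rpl39l, known from the testis, lay close to the dim level at 3.89 to 4.64 and differed by -0.15 (-0.44 to 0.15).

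How far the rises depend on the probe sets was examined next, since ribosomal protein genes have many processed pseudogenes. The 48 genes had 103 probe sets that name them alone, of which 90 were above the dim level. Tested singly, 53 of these were higher, 2 lower and 35 did not pass. In 17 of the 20 genes with several probe sets above the dim level, all of them differed in the same direction, and in 0 genes were calls opposite. The exceptions in direction were Rpl22, Rps29 and Rps9.

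Affymetrix marks a probe set with x or s where its probes can match other genes, and with a where they match several transcripts of a gene. A marked probe set represented 33 of the 48 members. With x and s sets left out, an alternative chosen after seeing the data, 43 members remained, of which 23 were higher and 1 lower, with a median of 0.21. With a sets left out as well, 25 members remained, 15 of them at a mean under 8, and 4 were higher and 1 lower, with a median of 0.01. These 4 of 25 are near the 16.2% of all genes called higher in the same alternative, so no excess of higher members was seen there. Of the genes higher in the full comparison, 10 could be tested in this way and 4 stayed past the threshold. Rplp0, Rpl19, Rps6 and Rpl41 were those 4, named after their values were seen. Rps6 was read on a probe set with a mean of 8.41. Rpl41 was read there on a probe set with a mean of 4.56, close to the dim level of 4.198. Averaging all probe sets of a gene gave smaller called rises for Rps9 (0.33), Rps20 (0.46), Rps6 (0.20) and Rps4x (0.16), and a larger one for Rpl13a (0.59).

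**Figure D4:**
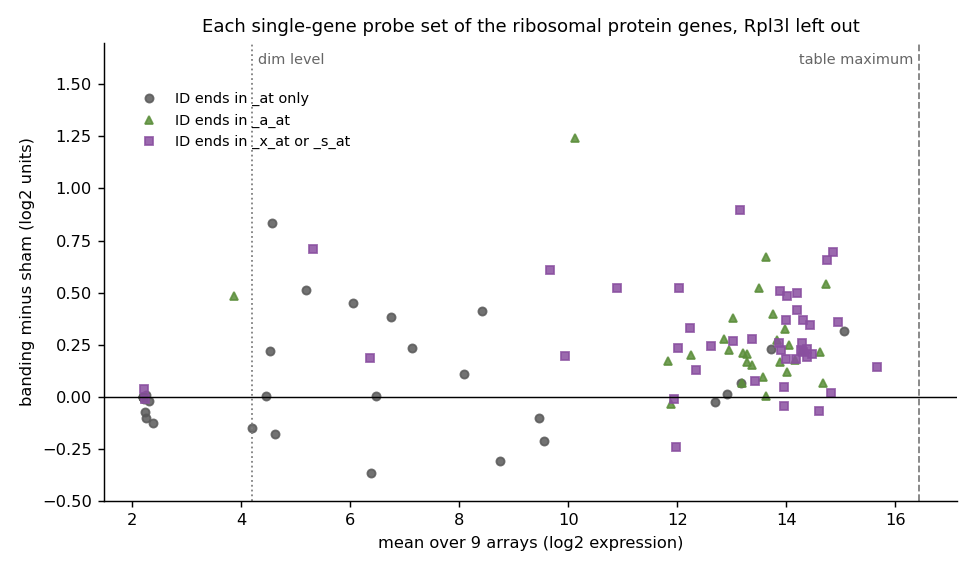
Difference between banding and sham in log2 units against the mean over 9 arrays for each probe set that names a ribosomal protein gene alone, Rpl3l left out. Symbols mark the ending of the probe set ID, and lines mark the dim level of 4.198 and the table maximum of 16.43. Above a mean of about 12 most points of all kinds lie above 0, and unmarked probe sets are few there.

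The 110 probe sets that name a ribosomal protein together with other genes were fitted with all 45037 probe sets. Of these, 65 were higher, 3 lower and 42 did not pass, against 12.8% higher and 13.2% lower over all probe sets. Their median difference was 0.25 over the 94 above the dim level. They name no single gene.

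Values close to the top of the table, 16.43, can be compressed. Rps29 was the only member within 1 log2 unit of it, with 15.61, 15.59, 15.52 and 15.60 in sham and 15.75, 15.75, 15.71, 15.69 and 15.71 in banding. The groups were apart, and the difference was 0.14 ± 0.02 (adjusted p = 0.00117). Its other probe sets, at means of 14.82 and 14.59, differed by 0.02 and -0.07. With probe sets within 1 log2 unit of the maximum left out, Rps29 did not pass (0.02, adjusted p = 0.465), and the family kept 28 higher and 2 lower genes. Across the 33 bright canonical genes the rank correlation of level and difference was 0.14, a description over genes that share the same arrays.

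Ribosomal protein genes with other names were higher as well. Rpsa, which encodes the laminin receptor form of protein SA, rose 1.19-fold (0.25 ± 0.05, adjusted p = 0.00594), and Fau, whose product is cleaved to ribosomal protein S30, rose 1.24-fold (0.31 ± 0.04, adjusted p = 0.00103). In both genes the groups did not overlap. The mean of the Rpsa probe sets rose by 0.11 (adjusted p = 0.0252).

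Other lists of the translation machinery set these values in context, and their counts are read against the 29.8% higher and 32.2% lower among all genes above the dim level. Of 20 TOP messengers outside the ribosome, 15 passed as higher and 2 as lower, and the median difference was 0.29. Without marked probe sets 15 could be tested, and 6 were higher and 1 lower. Pabpc1, the poly(A)-binding protein, rose 2.33-fold (1.22 ± 0.08), Gas5, a host gene of small nucleolar RNAs, 1.93-fold (0.95 ± 0.07) and Eef1a1, the main elongation factor, 1.83-fold (0.87 ± 0.06). Pabpc1 kept a difference of 0.71 without marked probe sets but did not pass there (adjusted p = 0.251), and Gas5 kept 0.52. Eef1d (-0.39) and Imp3 (-0.47), named after their values were seen, were the lower ones, and Eef1d did not pass as a mean of its probe sets (-0.07). Naca, a chaperone at the ribosome exit, rose 1.34-fold, or by 0.24 log2 units as the mean of its probe sets.

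Elongation and termination genes went both ways, with 5 of 14 higher and 6 lower. The muscle form Eef1a2 fell by 0.53 ± 0.08 (adjusted p = 0.00133) while Eef1a1 rose, and Eef1a2 was named after its values were seen. Of 33 initiation factors 10 were higher and 10 lower, with a median of -0.02. That split depended on the processing, with 3 higher and 11 lower of 27 without marked probe sets, 6 and 10 without sham replicate 1, and 8 and 12 with arrays centred on their medians. Eif2b1 (-0.81) and Eif2b4 (-0.88), subunits of the exchange factor of eIF2, were among the lower ones.

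More of the factors that build ribosomes were lower than higher. Of 75 genes of assembly and ribosomal RNA processing, 7 passed as higher and 34 as lower, and the median difference was -0.28. Dkc1, the pseudouridine synthase of ribosomal RNA, fell 4.01-fold, from 9.18 to 7.18 (SE of the difference 0.20, adjusted p = 0.000219), but by 1.22 log2 units as the mean of its probe sets and by 0.83 without marked ones. Lyar fell by 1.03 ± 0.09 and Emg1 by 0.95 ± 0.10. Of 16 genes of RNA polymerase I, which transcribes ribosomal RNA, limma called 0 higher and 5 lower, and the share of lower genes is near that of all genes above the dim level. The subunit Polr1a fell by 1.25 ± 0.10 (adjusted p = 0.000104), or by 0.28 as the mean of its probe sets, and the initiation factor Rrn3 by 0.55 ± 0.06. Polr1d was called lower (-0.61 ± 0.12), but the mean of its probe sets was called higher (0.49, adjusted p = 0.00126).

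In the mTORC1 and TOP control list, 4 of 18 genes passed as higher and 5 as lower, neither above the share among all genes above the dim level. Without marked probe sets 1 of 15 was higher and 4 were lower. Mtor itself fell by 0.65 ± 0.06 (adjusted p = 0.000219), and the repressor genes Tsc2 and Tsc1 fell by 0.89 ± 0.09 and 0.49 ± 0.09. As means of their probe sets Mtor fell by 0.23 and Tsc1 by 0.17, both still called. The higher ones, named after their values were seen, were Myc (1.11 ± 0.28, adjusted p = 0.015), Mycn (0.93 ± 0.20, or 0.28 as the mean of its probe sets), Eif4ebp1 (0.42 ± 0.14, adjusted p = 0.0436) and Max (0.31 ± 0.10, adjusted p = 0.0471). Larp1, which binds the TOP tract, was lower by -0.18 ± 0.05 (adjusted p = 0.0335), also named after its value was seen. Several of these calls were fragile, since Eif4ebp1 passed in 5, Max in 7 and Larp1 in 11 of 19 alternatives. With arrays centred on their medians the list had 2 higher and 6 lower genes.

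The mitochondrial ribosomal proteins, encoded by the nucleus for the separate ribosome of the mitochondrion, gave the opposite picture to the cytosolic set. Limma called 74 of 76 genes lower and 0 higher, and the median difference was -0.84. The differences ran from -1.67 to 0.01. The families were not set against each other in a test.

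**Figure D5:**
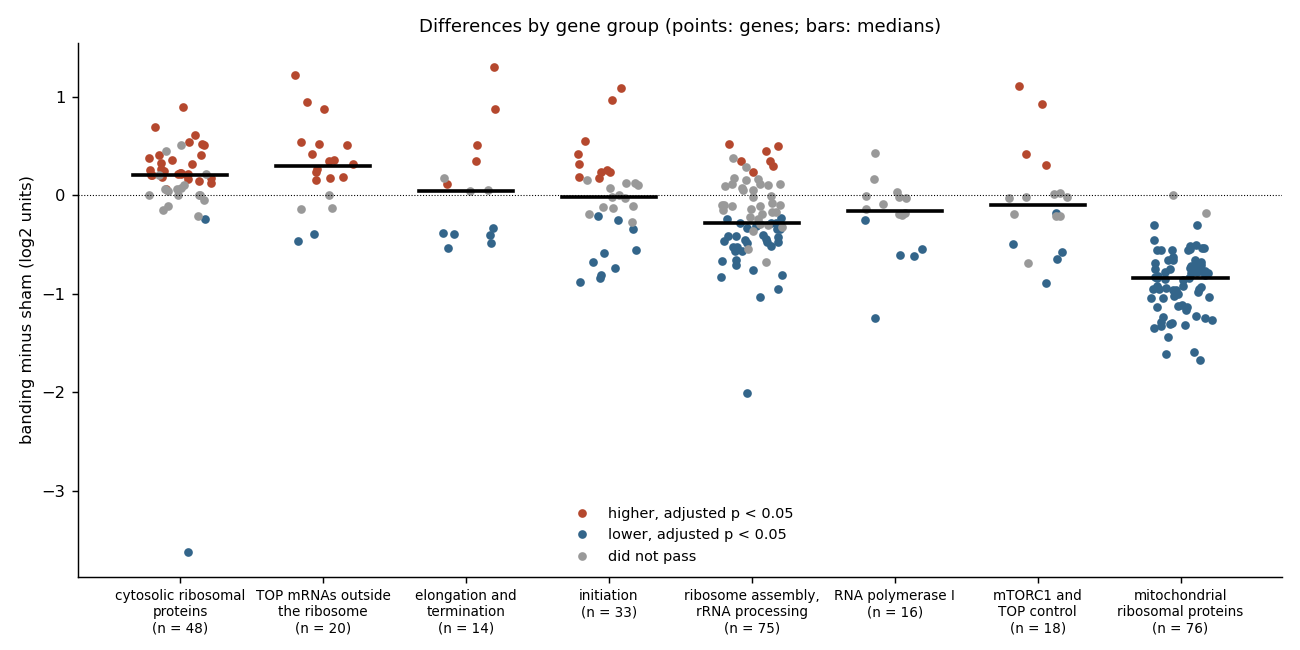
Differences between banding and sham in log2 units for the genes of 8 groups, with a bar at each median and colours for the call. Medians are 0.21 for the cytosolic ribosomal proteins, 0.29 for other TOP messengers, -0.28 for assembly factors and -0.84 for mitochondrial ribosomal proteins. The lowest point of the first group is Rpl3l.

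Markers of other cell types moved on the same arrays, where 29.8% of all genes above the dim level were higher and 32.2% lower. All 12 fibroblast markers were higher, and their summed level was 15.14 to 15.34 in sham and 17.43 to 17.69 in banding. Of 12 macrophage markers 11 were higher (13.73 to 13.99 against 14.72 to 15.31), of 10 endothelial markers 8 (12.41 to 12.64 against 12.68 to 13.18), and of 13 proliferation markers 11 (11.84 to 12.06 against 12.33 to 12.98). Of 8 smooth muscle markers 4 were higher (13.93 to 14.14 against 14.48 to 14.998), with Lmod1 dim in both groups. All 9 lymphocyte markers measured were dim in both groups. The part of these cells in the rises of the ribosomal protein genes was not tested.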

How the data were processed

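Right ventricular RNA of 5 banding and 4 sham samples was analysed from 1 table of 45101 probe sets. The deposited values are log2 expression on a scale inferred from their range, 2.198 to 16.43. RMA and GCRMA are the tools in the submitters' processing notes, with their versions and which of them made these values not given in the sources used here. Control probe sets (64) and those naming no gene (9160) or several (932) were left out. The other 34945 named 18193 genes, and the brightest probe set on average represented each gene.

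The groups were compared by lmFit and eBayes of limma 3.58.1 (R 4.3.3), two-sided, without covariates, adjusted by Benjamini-Hochberg over all genes at 0.05. In simulated data on these 18193 genes, only 50 brighter genes were changed at each size. The fit called 6% of changes of 0.2 log2 units, 50% of 0.5, 96% of 1 and 98% of 2. There were 6 false calls among the unchanged genes. In the real comparison 6989 genes passed, so the adjustment was less strict there. The simulated shares are therefore not the sensitivity of the real comparison.

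Members, lists and named genes followed written rules: paralogs and their relatives, stalk proteins, Rpl11, Rps6 and Rps19, the 8 largest separated rises and falls, the 3 brightest members, and up to 4 genes with the smallest p from each list. Other members are named as part of the family. Members and lists were chosen with earlier results of these data known. The ribosomal stress list and the cell type markers are given as counts. Figures used Python 3.11.15 and matplotlib 3.10.9. Replicate numbers did not pair the samples. The alternatives were probe set choices, a dim filter, quantile normalisation, median centring, another variance model, a replicate block and leaving out arrays.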

Additional observations from a re-analysis of the deposited data

Results flagged for a closer look

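Sets of 4 or 5 values were examined for the ribosomal protein genes, 94 in all. Of these, 5 held a value set apart from the rest by most of the range of its group. Chance flags about 1 group in 20 where values are not tied, but some of these values were, so the count cannot be read against that rate. On sham replicate 3, Rps2 stood at 14.07 with the nearest other value at 13.96, Rpl39l at 4.64 against 4.16, and Rps27 at 4.47 against 4.43. The other sham arrays shared a single value for Rps2 and for Rps27, and were nearly equal for Rpl39l. With the rest tied in this way, any differing value is flagged whatever its size. On banding replicate 5, Rps2 stood at 13.88 against 13.95, and on banding replicate 3, Rps10 stood at 14.09 against 14.17. Of these genes only Rps10 was called between the groups.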

How the results depend on the processing

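The counts of higher genes (29) and of all called genes (6989) stayed within 1.5 times under the alternatives run, except where all marked probe sets were left out, which left 25 members with 4 higher, 1 lower and a median difference of 0.010. A count of 1 lower gene in place of 2 was also found without x and s probe sets, with the replicate block, and without sham replicate 4 and banding replicate 5 together. The median difference was 0.25 after quantile normalisation and 0.17 with arrays centred on their medians, which lowered the higher genes to 24. The median of all genes above the dim level moved from -0.01 to -0.05 and -0.06 under these scalings. Leaving out single arrays gave 26 to 30 higher and 2 to 3 lower members. Of the 29 higher genes, 12 stayed past the threshold in every alternative that tested them, and Rplp2 and Rps15 lost their calls most often, in 10 and 11 of the alternatives.

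Directions changed without marked probe sets for Rps9 (-0.18, also without x and s sets alone), Rps10 (-0.13) and Rpl35 (-0.073), none of which passed there. The probe sets left had means of 2.38 for Rps10 and 2.23 for Rpl35, close to the floor of 2.198. For Rps9 the mean was 4.62, close to the dim level of 4.198. In those 2 probe set alternatives Abce1, one of the higher elongation and termination genes, was lower (-0.24). With the mean of all probe sets Polr1d became 0.49 and Twistnb, one of the lower RNA polymerase I genes, 0.041. The cause was not tested. With the replicate number as a block, 21 members were higher and 5277 genes passed in all. Deviations of same-numbered arrays correlated at -0.03 to 0.04, so the samples share only a number. Signal near the floor limits Rps16, Rps27, Rpl39 and Rpl39l. It also limits the unmarked probe sets of Rps9, Rps10, Rps20, Rpl35 and Rpl41.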

Other observations

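Free ribosomal proteins such as Rpl5 and Rpl11 are known to bind Mdm2 and so stabilise p53. Of 10 genes of a ribosomal stress and p53 target list, 3 were higher, 1 lower and 6 did not pass. Among all genes above the dim level 29.8% were higher and 32.2% lower, so the list held no excess of higher genes. Cdkn1a, the cell cycle inhibitor, rose by 2.96 ± 0.29 log2 units (adjusted p = 0.000207), or 1.82 as the mean of its probe sets, Phlda3 by 2.12 ± 0.17 (adjusted p = 8.69e-05) and Zmat3 by 1.68 ± 0.08 (adjusted p = 1.81e-05). Mdm2 fell by 0.35 ± 0.08 (adjusted p = 0.00925), but by 0.17 as the mean of its probe sets. The call was lost with the replicate block (-0.36, adjusted p = 0.0602) and without marked probe sets, where the difference was 0.0 (adjusted p = 1.0). Ccng1 differed by 0.02 and Bbc3 by 0.18, and neither passed; both were named after their values were seen.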
